A study of Homo sapiens with 6 samples.

Results

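Cytokines, chemokines and adhesion molecules are the secreted and surface proteins by which epithelial cells call in and hold leukocytes. The set described here was given as 37 named genes. It was read from every probe set (a group of short probes for 1 transcript) that the platform annotation pairs with a single one of these symbols, IL8 being counted as CXCL8. Of the 37 genes, 36 were found, through 68 probe sets, among 19775 genes in all. CSF2 was not analysed here. The signals came from HMLE, immortalised human mammary epithelial cells kept in medium with serum, insulin, hydrocortisone and EGF. The control line carried a pBabe-shGFP retrovirus, which makes a hairpin against a protein these cells do not have, and the Twist line a pBabe-Twist retrovirus, whose product Twist is a regulator of the epithelial-mesenchymal transition. Both lines were thus infected derivatives of the same cells, 1 line of each kind, with Twist driven from the retrovirus. Each line was treated with the solvent DMSO or with the small molecule Cmp302, called 5 µM and 10 µM for 6 h by the titles and the treatment protocol, whereas the source names and treatment tags of those samples give 2 µM instead, for 4 h or 8 h. Group names below follow the titles, and whether dose or time separates the treated arrays cannot be told apart.

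Interleukin-1 and TNF-type cytokines act on neighbouring cells through receptors that switch on NF-kB. NF-kB in turn induces many of the genes in this set, among them IL6, LIF, ICAM1 and the neutrophil-attracting CXC chemokines, so that one signal can spread through a tissue. Mammary and skin epithelial cells hold stores of interleukin-1 alpha and its natural antagonist, the product of IL1RN, and release them when damaged.

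Each group had 1 array, so a difference between 2 arrays has no replicate check and is given without a test. Signals are log2 values per array, so a difference of 1 is a 2-fold difference. Values under a floor of 3.71, the median of all values, were set to it and are called "at the floor". A gene counted as higher or lower where it passed 2-fold and exceeded the floor on either array compared. "Rose" and "fell" are kept for calls of a fit over all 6 arrays. Where 1 side lay at the floor the difference is a bound, written "at least". In bulk RNA, fewer cells of a type and less RNA per cell cannot be told apart. Between 11646 and 11841 genes lay above the floor on each array. RNA quality was read as the excess of 3' over middle probe set signal, averaged over GAPDH and ACTB. It was 0.28 (DMSO), 0.45 (5 µM) and 0.84 (10 µM) log2 units without Twist, and 0.96, 0.36 and 0.45 for the same treatments with it. The Twist DMSO array thus had the highest excess of the 6 and is also the baseline of each Cmp302 change in that line. Its part in these changes was not tested, and counts of the set between lines on the 5 µM and 10 µM arrays, which do not use that array, are also given.

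Of the 36 genes, 29 exceeded the floor on 1 or more arrays, and 13 on all 6. The number above the floor was 24 on each control-line array, 18 on the Twist DMSO array and 20 on both Twist Cmp302 arrays. TNF, IL33, CCL5, CXCL5, CXCL10, CXCL11 and the adhesion molecule gene VCAM1 lay at the floor throughout, which sets only an upper limit on their level.

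**Figure D1:**
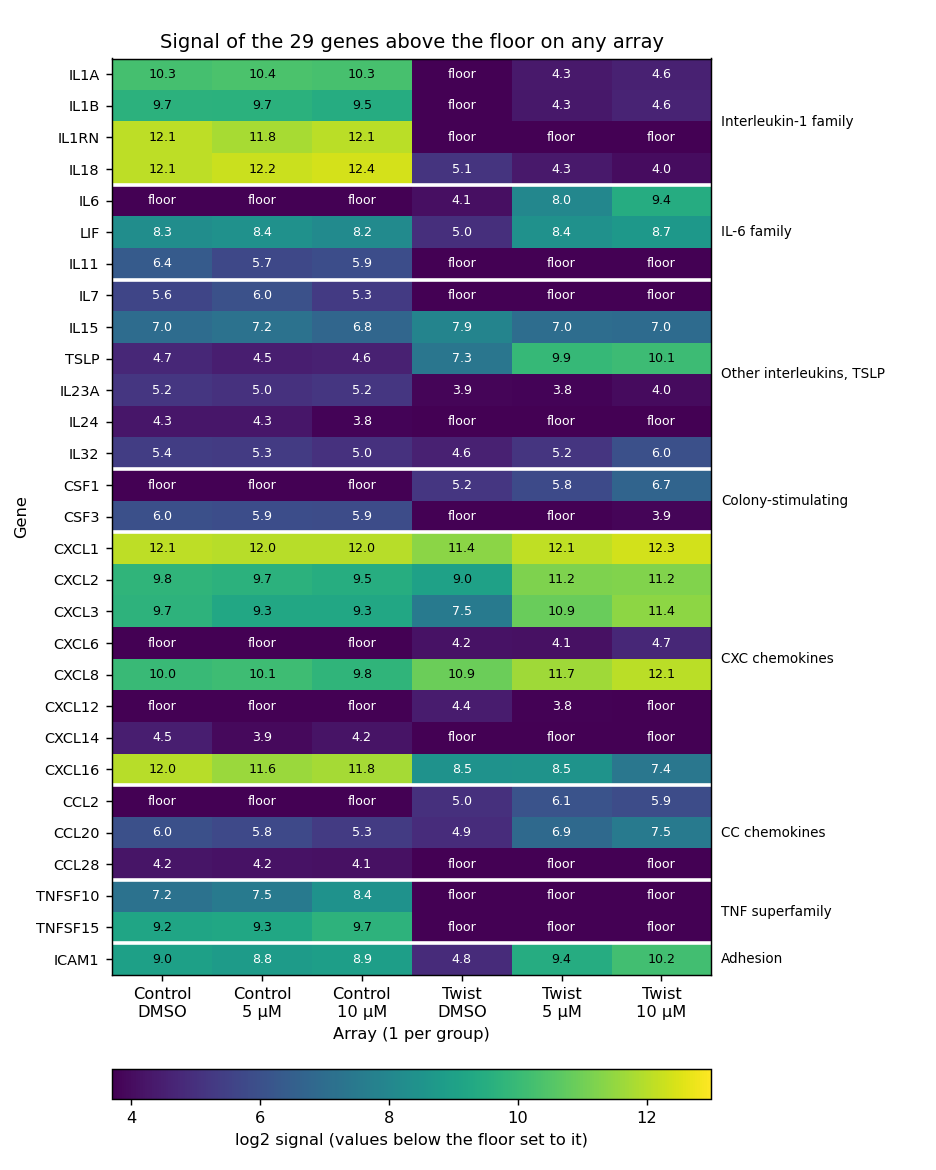
Log2 signal of the 29 genes above the floor on any array (rows, by family) on the 6 arrays (columns, 1 per group), with the value in each cell and "floor" where it lay at or below 3.71. The interleukin-1 family and TNF superfamily rows are high on the control-line arrays and at or near the floor on the Twist-line arrays, whereas IL6 is above the floor in the Twist line only.

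Setting the lines side by side under DMSO asked which of these signals the cells had lost with Twist. The larger share of the measured genes was lower in the Twist line, and the widest differences were those of IL1RN, IL18, IL1A and IL1B, all of the interleukin-1 family. Of 29 genes measured, 15 were lower past 2-fold, against 13.5% of all genes measured, and 3 were higher, against 11.9%. Their median difference was -1.08, and that of all genes measured lay at 0.00. The lower genes fell into 11 that were lower than in the control line under each of the 3 treatments, and 4 (ICAM1, LIF, CXCL3 and CCL20) that were lower under DMSO alone.

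IL1RN, which encodes the interleukin-1 receptor antagonist, had control-line signals of 12.07 (DMSO), 11.80 (5 µM) and 12.05 (10 µM), an order kept below, and was at the floor on every array of the Twist line. Under DMSO it was at least 327-fold lower on the brightest of its 5 probe sets. The others had at most 4.40 in any array, so the bounds they give are small (-0.68 for the widest). IL18, encoding an interleukin-1 family cytokine that caspase-1 matures, had 12.07, 12.25 and 12.39 in the control line, against 5.11, 4.33 and 4.02 with Twist. The 2 lines did not overlap, and IL18 was 124-fold lower under DMSO. IL1A, encoding interleukin-1 alpha, had control-line signals of 10.26, 10.37 and 10.30. In the Twist line it was at the floor under DMSO and at 4.33 and 4.58 with Cmp302. IL1B, encoding interleukin-1 beta, had 9.68, 9.66 and 9.47 in the control line, lay at the floor in the Twist line under DMSO and had 4.30 and 4.62 with Cmp302. Both were lower in the Twist line on every array, IL1A at least 93.4-fold and IL1B at least 62.5-fold under DMSO. The second probe set of IL1B gave a bound of -5.47 log2 units, and that of IL1A lay below the floor on every array.

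The TNF superfamily ligand genes above the floor, TNFSF15 and TNFSF10, lay at the floor in the Twist line on their brightest probe sets. TNFSF15, encoding a ligand of death receptor 3, had 9.17, 9.26 and 9.73 in the control line, and was at least 43.9-fold lower under DMSO. TNFSF10, which encodes the death ligand TRAIL, had 7.21, 7.51 and 8.45 and was at least 11.3-fold lower. Its other probe sets gave bounds of -3.7 and -2.24 log2 units, and the second of them had 4.09 on the Twist 5 µM array. CXCL16, whose product is a membrane-bound chemokine, had 12.01, 11.61 and 11.75 without Twist and 8.46, 8.49 and 7.39 in the Twist line, 11.7-fold lower under DMSO. The lymphoid growth factor gene IL7 (5.64, 6.02 and 5.28 in the control line), the IL-6 family gene IL11 (6.36, 5.74 and 5.92) and the neutrophil growth factor gene CSF3 (5.98, 5.90 and 5.86) lay at the floor under DMSO in the Twist line. The bounds on these differences were -1.92, -2.64 and -2.26 log2 units. IL23A, encoding a subunit of interleukin-23, had 5.19, 5.04 and 5.19 against 3.85, 3.80 and 3.98, a difference of -1.34. The dim genes IL24, CXCL14 and CCL28, each at most 4.49 in the control line, were at the floor in the Twist line. The bounds on their differences under DMSO ran from -0.53 to -0.77, inside 2-fold.

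Promoter sequences from RefSeq (GRCh38.p14) were matched by symbol for 27 of the 36 genes and searched over the 250 bases before the start, on both strands. Of the 11 genes lower under each treatment, 7 had a promoter in the table. The AP-1 motif TGANTCA was found in 5 of these 7 and in 8 of the 27, against 6.57% of all 35116 promoters. A match is a description of the sequence and says nothing on binding. The stretches with that motif in capitals are shown for these 5 genes, which were picked for holding it. IL1B and TNFSF10, the rest of the 7 and also low in the Twist line, held no match. They lie at chr2:112784494-112784526 on the minus strand for IL1A, chr2:113117735-113117767 on the plus strand for IL1RN, chr19:55370540-55370572 on the minus strand for IL11, chr12:56338794-56338826 on the plus strand for IL23A and chr9:114792631-114792663 on the minus strand for TNFSF15.
IL1A: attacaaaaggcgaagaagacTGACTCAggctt
IL1RN: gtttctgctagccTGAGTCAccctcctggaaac
IL11: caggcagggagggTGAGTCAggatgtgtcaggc
IL23A: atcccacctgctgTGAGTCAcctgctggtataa
TNFSF15: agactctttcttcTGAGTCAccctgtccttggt
The core in IL1A is that of the other 4 read from the opposite strand, and it lies closest to the start of the 5. The motif was found in 0 of the 6 promoters in the table among genes past 2-fold higher at each Cmp302 level in the Twist line. The remaining carriers among the 27 were CXCL8, CXCL11 and CXCL14. CXCL8 is outside those 6 on its brightest probe set (0.77 at 5 µM and 1.13 at 10 µM in the Twist line). Its other probe set was past 2-fold at both levels (2.69 and 2.86).

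The 3 genes higher in the Twist line under DMSO were TSLP, CSF1 and CCL2. TSLP, which encodes a cytokine of epithelial and stromal cells that acts on dendritic cells, had 4.74, 4.48 and 4.56 in the control line, against 7.34, 9.93 and 10.07 with Twist, so that the lines did not overlap and the DMSO difference was 2.60, or 6.07-fold. CSF1, the macrophage growth factor, was at the floor on the control-line arrays and at 5.19, 5.78 and 6.69 in the Twist line. Its other 3 probe sets were below 4. CCL2, encoding a monocyte chemokine, was at the floor on all control-line arrays and at 4.99, 6.10 and 5.87 in the Twist line. CXCL8, encoding interleukin-8, differed by 0.93 under DMSO and IL15 by 0.90, whereas their second probe sets gave 0.16 and 0.03. CXCL12 (4.40, 3.75 and below the floor) and CXCL6 (4.15, 4.14 and 4.73) were above the floor in the Twist line alone and close to it.

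**Figure D2:**
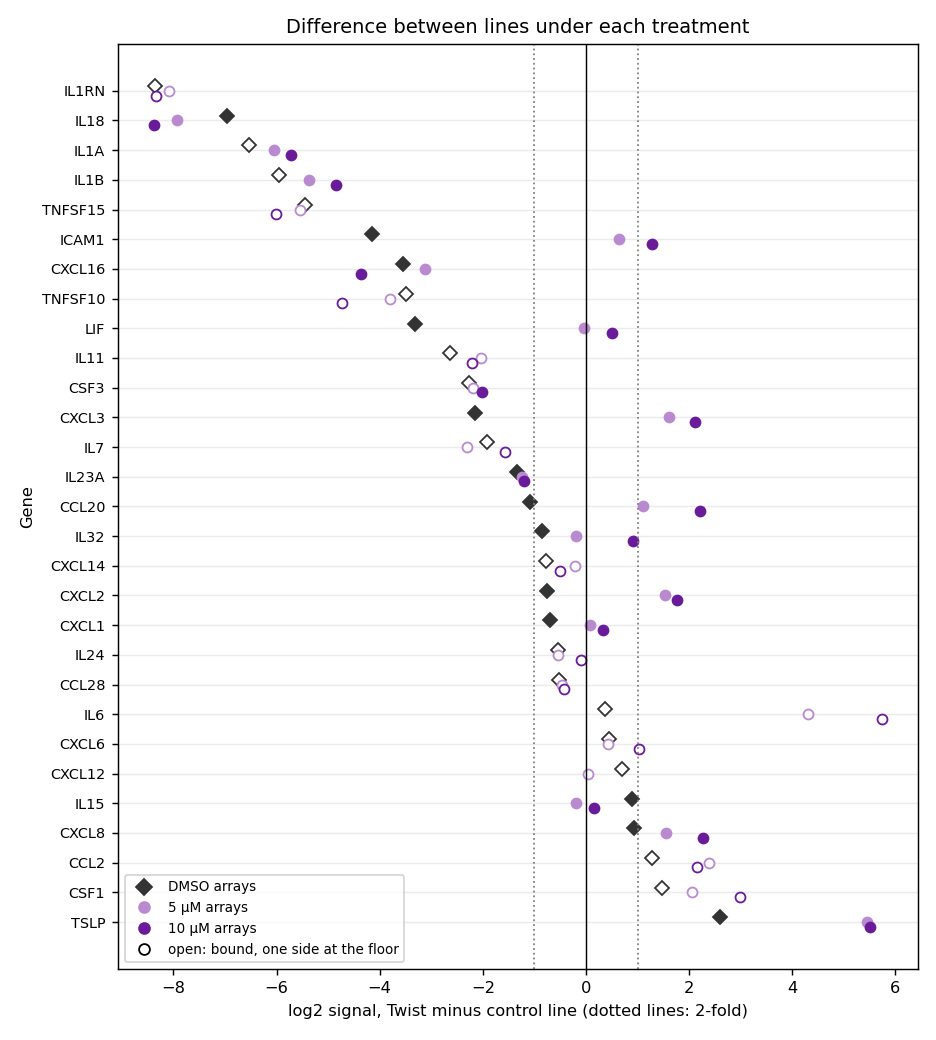
Difference in log2 signal between the Twist and control lines (x axis) for the 29 genes (y axis) on the DMSO, 5 µM and 10 µM arrays; open symbols are bounds with 1 line at the floor, and a gene at the floor in both lines has no symbol. ICAM1, LIF, CXCL3 and CCL20 lie left of -1 on the DMSO arrays and right of -0.1 with Cmp302, and the 11 genes lower under each treatment, among them IL1RN, IL18 and IL1A, lie left of -1 throughout.

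Cmp302 in the Twist line was compared with DMSO to see how the same genes stood in treated cells after the transition. IL6, LIF, ICAM1, CXCL2, CXCL3, CCL20 and TSLP were higher at both levels, and 0 genes of the set were lower at 5 µM. Within their families, IL11 stayed at the floor, CXCL1 and CXCL6 stayed inside 2-fold, and CXCL16 was lower at 10 µM. Of 20 genes measured at 5 µM, 8 were higher, against 4.26% of all genes, and 0 lower, against 5.01%. Of 21 measured at 10 µM, 10 were higher, against 8.04%, and 2 lower, against 8.46%. The median changes were 0.67 and 0.98 log2 units, against 0.00 and -0.01 over all genes measured. These comparisons share the Twist DMSO array, so they do not support each other.

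IL6, which encodes the acute-phase cytokine interleukin-6, lay at the floor on the 3 control-line arrays. In the Twist line it had 4.08 under DMSO, 8.02 at 5 µM and 9.45 at 10 µM. The changes of 3.94 and 5.37 log2 units are 15.3-fold and 41.4-fold, and against the control-line arrays of the same treatment IL6 was higher by at least 4.30 and 5.74. IL6 was the one gene of the set past 2-fold higher between the 10 µM and 5 µM Twist arrays (1.43), against 0.593% of all genes, and CXCL16 the one lower (-1.10), against 0.508%. LIF, whose product signals through the same receptor subunit as interleukin-6, had control-line signals of 8.27, 8.42 and 8.17 and Twist-line signals of 4.95, 8.40 and 8.67. With Cmp302 it thus lay within 0.50 log2 units of the control line, after a start 9.97-fold below it. IL11, of the same family, stayed at the floor in the Twist line.

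ICAM1 encodes the adhesion molecule that leukocyte integrins bind. It had 9.0, 8.81 and 8.92 without Twist and 4.84, 9.45 and 10.20 in the Twist line. The Twist DMSO array was the lowest of the 6 and both Twist Cmp302 arrays lay above the control line, by 0.63 and 1.28. The change from DMSO was 24.4-fold at 5 µM and 41.1-fold at 10 µM. A second bright probe set gave 3.02 and 3.66 log2 units, and the remaining one lay near the floor. VCAM1, the related adhesion molecule gene, was at the floor on every array.

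The promoters of IL6 and ICAM1, the genes with the widest changes, are shown over the 250 bases before the start, with matches of the kappaB consensus or of GGAANTTCC, a shorter form of it, in capitals. They cover chr7:22726950-22727199 and chr19:10270870-10271119, both on the plus strand of GRCh38.p14, per RefSeq.
IL6: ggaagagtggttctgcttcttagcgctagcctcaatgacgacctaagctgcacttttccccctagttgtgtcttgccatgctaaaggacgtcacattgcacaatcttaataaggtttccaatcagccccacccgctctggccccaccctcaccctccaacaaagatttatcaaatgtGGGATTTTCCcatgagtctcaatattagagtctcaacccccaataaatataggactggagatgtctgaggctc
ICAM1: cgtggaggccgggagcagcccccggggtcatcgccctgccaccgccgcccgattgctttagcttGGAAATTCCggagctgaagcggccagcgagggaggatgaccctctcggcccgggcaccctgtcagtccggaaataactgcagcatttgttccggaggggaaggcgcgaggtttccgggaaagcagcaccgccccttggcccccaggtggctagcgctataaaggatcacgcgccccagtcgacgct
The IL6 match begins 73 bases before the start and the ICAM1 match 186 bases before it.

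Over all 27 promoters, 12 held the kappaB consensus and 9 held GGAANTTCC, against 9.96% and 0.826% of all promoters. Most GGAANTTCC matches lie inside a match of the longer motif. Of the 6 promoters of genes past 2-fold higher at each level (IL6, ICAM1, CXCL2, CXCL3, CCL20 and TSLP), 4 held the consensus and 3 the shorter form, and TSLP held neither. Of the 7 promoters of genes lower in the Twist line under each treatment, 1 (IL23A) held the consensus and 0 the shorter form. CXCL5, CXCL10, CXCL11 and VCAM1, at the floor on all arrays, also held the consensus. A C/EBP-ATF motif, TGATGNAA, was in 0 of the 27 promoters and in 3.14% of all, and the interferon response motif, GAAA, any 2 bases and GAAA, in 4 (IL24, CXCL10, TNFSF10 and VCAM1), against 3.02%.

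The neutrophil-attracting CXC chemokines differed among themselves in the size of their change. CXCL3 had 9.70, 9.27 and 9.29 in the control line, against 7.54, 10.88 and 11.41 with Twist, changes of 3.34 and 3.87 log2 units (10.1-fold and 14.6-fold). CXCL2 had 9.79, 9.68 and 9.48, then 9.03, 11.21 and 11.25, changes of 2.18 and 2.22. These rest on 1 probe set, as the others of CXCL2 lay below the floor on every array. For both genes the Twist DMSO array was the lowest of the 6 and the Twist Cmp302 arrays the highest. CXCL1 had 12.07, 12.02 and 12.02, then 11.37, 12.10 and 12.35. Its changes of 0.73 and 0.98 stayed inside 2-fold, and with Cmp302 it differed from the control line by 0.07 and 0.33. CXCL8 had 9.99, 10.13 and 9.79 without Twist and 10.92, 11.69 and 12.05 in the Twist line. Its changes were 0.77 and 1.13 on this probe set and 2.69 and 2.86 on the other, which went from 5.66 under DMSO to 8.35 and 8.52. The probe sets of CXCL2 and of CXCL8 used here carry the suffix for possible cross-hybridisation, and CXCL1, CXCL2 and CXCL3 are close paralogues, so the share of each in these signals is uncertain.

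These genes lie together on chromosome 4. In order along it, the 9 protein-coding genes from CXCL8 to CXCL2 are CXCL8, CXCL6, PF4V1, CXCL1, PF4, PPBP, CXCL5, CXCL3 and CXCL2. PF4V1, PF4 and CXCL5 were at the floor on all arrays. PPBP, encoding a platelet chemokine, had 6.14, 5.65 and 5.73 in the control line and floor values with Twist. The cluster thus held genes higher with Cmp302 in the Twist line next to genes that stayed at the floor there. The promoters of its chemokine genes are shown, aligned on their GGAANTTCC match, because the capitals are shared by genes at the floor and genes far above it. The windows are chr4:73869299-73869338 (plus strand) for CXCL1, chr4:74099249-74099288 (minus) for CXCL2, chr4:74038744-74038783 (minus) for CXCL3, chr4:73998744-73998783 (minus) for CXCL5, chr4:73836573-73836612 (plus) for CXCL6 and chr4:73740462-73740501 (plus) for CXCL8, in GRCh38.p14.
CXCL1: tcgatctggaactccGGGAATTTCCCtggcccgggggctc
CXCL2: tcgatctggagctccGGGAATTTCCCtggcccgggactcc
CXCL3: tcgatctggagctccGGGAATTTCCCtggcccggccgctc
CXCL5: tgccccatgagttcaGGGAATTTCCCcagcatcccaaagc
CXCL6: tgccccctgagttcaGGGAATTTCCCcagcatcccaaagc
CXCL8: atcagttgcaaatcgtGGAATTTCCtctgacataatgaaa
Over these 40 bases CXCL2 and CXCL3 had 87.5% of positions in common, CXCL5 and CXCL6 97.5%, and CXCL3 and CXCL5 55.0%. The capitals are the same 11 letters in CXCL1, CXCL2, CXCL3, CXCL5 and CXCL6. Of these, CXCL5 lay at the floor on all arrays and CXCL6 had at most 4.73, whereas CXCL2 and CXCL3 were past 2-fold higher at each Cmp302 level in the Twist line.

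The interleukin-1 cluster on chromosome 2 showed a different layout. It runs from IL1A and IL1B through IL37, IL36G, IL36A, IL36B, IL36RN and IL1F10 to IL1RN. IL36G, encoding an epithelial cytokine of this family, had 5.66, 5.02 and 5.10 in the control line and floor values with Twist, and IL36RN went from 4.09, 3.73 and 3.76 to the floor. All 5 genes of the cluster above the floor in the control line were thus at the floor on the Twist DMSO array, and the 4 others were at the floor throughout. Of the 5, IL1A and IL1B alone lay above the floor with Cmp302.

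**Figure D3:**
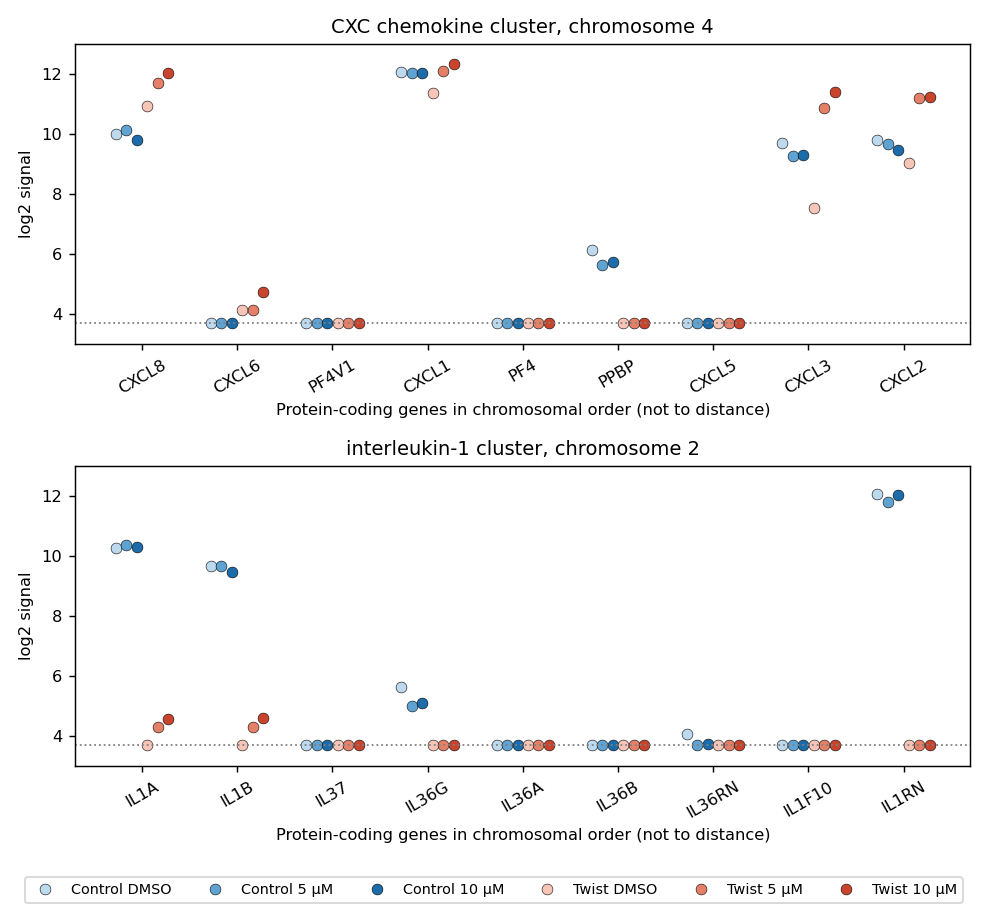
Log2 signals (y axis) on the 6 arrays for the protein-coding genes of the chemokine cluster on chromosome 4 and the interleukin-1 cluster on chromosome 2, in chromosomal order (x axis); blue points are control-line and red points Twist-line arrays, darker at higher Cmp302, and the dotted line is the floor. In the upper panel CXCL3 and CXCL2 have their lowest point on the Twist DMSO array and their highest on the Twist Cmp302 arrays, and in the lower panel the 3 Twist-line points lie at or near the floor for each gene.

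Among the other genes, TSLP was higher by 2.59 and 2.73 with Cmp302, about 6.01-fold and 6.64-fold, on top of its higher start, and by 5.44 and 5.51 over the control line at the same treatments. CCL20, encoding a chemokine for dendritic cells and CCR6-bearing lymphocytes, had 5.98, 5.76 and 5.34 in the control line, against 4.90, 6.88 and 7.55 with Twist, changes of 1.98 and 2.65. CSF1 had changes of 0.59 and 1.5, and IL32, encoding an inflammatory cytokine, of 0.60 and 1.40 (4.56, 5.16 and 5.96 against 5.41, 5.34 and 5.05 in the control line). CCL2 had changes of 1.11 and 0.88. IL1A and IL1B lay above the floor by 0.87 and 0.91 at 10 µM, and were still 52.8-fold and 28.9-fold lower than in the control line there. IL18 (-0.78 and -1.09) and CXCL16 (0.03 and -1.07) were the 2 genes lower past 2-fold at 10 µM, both already low in this line. IL15 had changes of -0.85 and -0.94, and its second probe set -0.20 and -0.03.

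**Figure D4:**
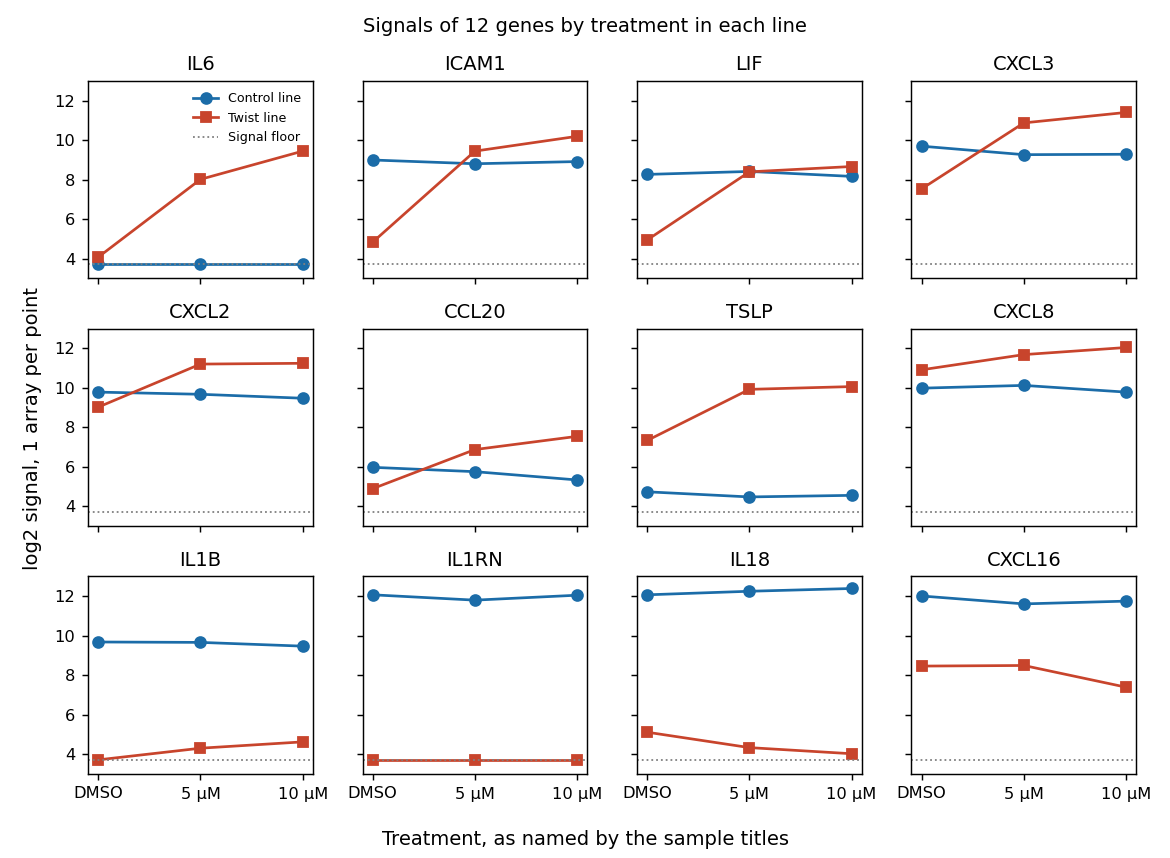
Log2 signal (y axis) of 12 genes under DMSO, 5 µM and 10 µM (x axis) in the control line (circles) and the Twist line (squares), 1 array per point, with the floor as a dotted line. The control-line values of each gene are nearly level, and the Twist-line values of IL6, ICAM1, LIF and CXCL3 go from 4.08, 4.84, 4.95 and 7.54 under DMSO to 9.45, 10.20, 8.67 and 11.41 at 10 µM.

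The lines were also set side by side at each treatment, without the Twist DMSO array. On the 5 µM arrays 8 of 29 measured genes were higher in the Twist line, against 12.1% of all genes, and 11 lower, against 12.6%. On the 10 µM arrays 10 of 28 were higher, against 14.8%, and 11 lower, against 14.1%. The higher genes at both were TSLP, IL6, CCL2, CSF1, CXCL3, CXCL8, CXCL2 and CCL20, joined at 10 µM by ICAM1 and CXCL6. Against the control-line DMSO array, 7 of 29 genes were higher on the Twist 5 µM array, against 11.4%, and 11 lower, against 12.6%. The Twist 10 µM array had 10 of 28 higher, against 12.9%, and 11 lower, against 13.9%.

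In the control line the set stayed close to DMSO. At 5 µM 0 of 24 measured genes were higher and 0 lower, against 0.0585% and 0.0668% of all genes, and the median change was -0.06. At 10 µM 1 was higher, against 0.2%, and 0 lower, against 0.259%. The gene was TNFSF10, with a change of 1.25 (0.49 and 0.86 on its other probe sets). The markers of fibroblasts and fat cells also had a higher summed signal on that 10 µM array, 11.63 against 10.22 under DMSO on the log2 scale. COL1A1, higher by 2.61, was the 1 of 3 measured markers past 2-fold, and the median change of the 3 was -0.25. The part of these markers in the TNFSF10 value was not tested. IL6 did not leave the floor, ICAM1 differed by -0.18 and -0.07, and CXCL3 by -0.42 and -0.40.

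**Figure D5:**
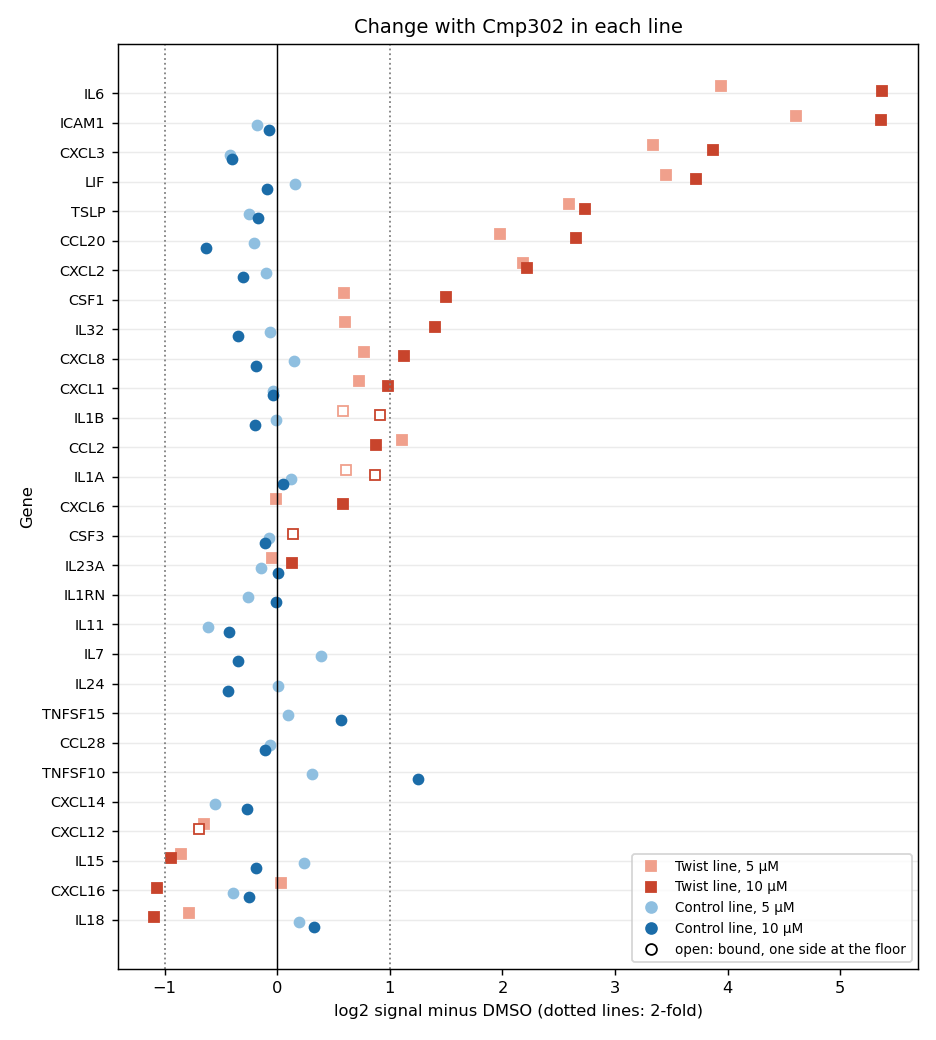
Change in log2 signal from DMSO (x axis) at 5 µM and 10 µM in the Twist line (squares) and control line (circles) for the 29 genes (y axis), ordered by the Twist-line value at 10 µM; open symbols are bounds, and a gene at the floor on both arrays has no symbol. All control-line points but TNFSF10 at 10 µM lie within 2-fold, and 10 Twist-line points at 10 µM lie right of 1.

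The fits over all 6 arrays used limma with Benjamini-Hochberg adjustment over 12478 genes. With treatment as a factor, 5 of the 29 tested genes were called higher in the Twist line and 13 lower, against 13.7% and 14.9% of all genes. IL18 and CXCL16 exceeded the floor on each of the 6 arrays, and IL18 had an estimate of -7.75 ± 0.32 (SE, adjusted p = 5.2e-05) and CXCL16 one of -3.68 ± 0.29 (adjusted p = 0.00054). IL1RN, TNFSF15, TNFSF10, IL7, IL11, CCL28 and CXCL14 passed the filter through the control line alone, and CSF1, CCL2 and CXCL6 through the Twist line alone. For these the other line was set to the floor, so their calls follow in part from the filter, their estimates depend on the floor, and the counts are no support for the set. Besides the 11 genes lower under each treatment, CCL28 and CXCL14 were called lower, from signals close to the floor. The higher ones were TSLP (4.52 ± 0.61, adjusted p = 0.0042), CSF1, CCL2, CXCL8 and CXCL6. ICAM1 (-0.75 ± 1.07, adjusted p = 0.68) and LIF (-0.95 ± 0.76, adjusted p = 0.43), low on the Twist DMSO array alone, were not called. IL6, with 3.47 ± 0.99, had an adjusted p of 0.054, and it too passed the filter through the Twist line alone. Without the DMSO pair 10 genes of the set were called higher, as were 3565 of all 12478 genes.

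With the treatments as levels 0, 1 and 2, 13 genes of the set rose per level in the Twist line and 2 fell, against 10.8% and 11.4% of all genes. IL6 rose by 2.69 ± 0.31 log2 units per level (adjusted p = 0.011), ICAM1 by 2.68 ± 0.47 (adjusted p = 0.023), CXCL3 by 1.94 ± 0.35 (adjusted p = 0.024) and LIF by 1.86 ± 0.39 (adjusted p = 0.031). The other 9 were CCL20, CSF1, CXCL1, CXCL2, CXCL8, IL1A, IL1B, IL32 and TSLP, and IL18 and CXCL12 fell. The Twist DMSO signals of IL1A and IL1B were set to the floor, so the trends of these genes depend on it. In the control line 0 genes were called, over the set and over the array (limma), and the smallest adjusted p of the set was 0.62. The difference of trends between lines was called for 3 genes, all higher in the Twist line, against 0.729% of all genes. These were CCL20 (1.64 ± 0.25, adjusted p = 0.048), CSF1 (0.75 ± 0.11, adjusted p = 0.047) and IL32 (0.88 ± 0.12, adjusted p = 0.041). For IL6 (2.69 ± 0.43) the adjusted p was 0.051 and for ICAM1 (2.72 ± 0.66) it was 0.057. Both fits have 2 residual degrees of freedom. The fit between lines takes differences of the line effect between treatments for error, and the trend fit takes departures from its straight lines. IL6, CSF1 and CXCL12 were at the floor in the control line, which hides any trend there. They passed the filter through the Twist line alone. Their constant control-line values add nothing to the error of the fit, so their p-values and calls are no support. With no filter on low signals the Twist-line trend called 0 genes of the set, and 8 up and 8 down of all 19775 genes. Without any 1 array other than Twist 5 µM it called 0 of the set and 0 of all genes. Without the Twist 5 µM array it called 12 up and 2 down, and 1468 and 1760 of all 12478 genes.

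Of 15 NF-kB subunits, inhibitors and targets on the array, 8 were higher than under DMSO on the Twist 5 µM array and 8 on the 10 µM array, against 4.26% and 8.04% of all genes, with medians of 1.01 and 1.32. The trend called 9 up and 0 down, against 10.8% and 11.4%. Under DMSO 5 of 14 measured genes of the list were lower in the Twist line than in the control line (PTGS2, NFKBIA, TNFAIP3, NFKB1 and REL), against 13.5%, and 0 higher, against 11.9%. Between lines on the 5 µM arrays, which do not use the Twist DMSO array, 2 were higher (RELB and NFKB2), against 12.1%, and 1 lower (REL), against 12.6%. On the 10 µM arrays 5 were higher, against 14.8%, and 1 lower, against 14.1%. The widest changes from DMSO at 10 µM were those of the prostaglandin synthase gene PTGS2 (4.52) and of RELB, a subunit (2.71). Between lines PTGS2 differed by -0.80 at 5 µM and 0.99 at 10 µM, and RELB by 1.57 and 2.93. In the control line 0 genes of the list were past 2-fold at either level. This list was drawn up with earlier results of these data known.

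Of 36 receptors of these ligands on the array, 20 were measured in the Twist-line comparison at 10 µM. Of these, 2 were higher and 3 lower, against 8.04% and 8.46% of all genes, and the median change was -0.29. The limma trend in the Twist line called 2 of 22 tested receptors up and 6 down, against 10.8% and 11.4%. The limits of that fit given above apply here too. Between lines under DMSO, 7 of 23 measured receptors were higher with Twist, against 11.9%, and 5 lower, against 13.5%. IL1RL1, the receptor of interleukin-33, was at the floor in the control line and had 4.84, 6.34 and 7.70 in the Twist line, a change of 2.86 at 10 µM, while its ligand gene IL33 stayed at the floor. IL6R, the interleukin-6 receptor, had 9.60, 8.47 and 7.44, a change of -2.16, from a control line at 10.16, 10.07 and 10.42. IL6R was thus lowest on the array where IL6 was highest. IL7R, which binds interleukin-7 and with another chain TSLP, had 7.95, 9.27 and 9.87 in the Twist line against 9.65, 9.63 and 9.82.

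Of 38 other cytokines and chemokines, 35 were on the array and 4 were measured in the Twist line at 10 µM, with 0 past 2-fold. The widest values were those of TNFSF9 (0.79) and KITLG (0.20). In the comparison under DMSO, CXCL17 was lower in the Twist line at least 16.7-fold, LTB at least 5.15-fold and IL36G at least 3.85-fold. These are 3 of 9 measured, against 13.5% of all genes. The limma fit called 4 of 8 lower (these and CCL22), against 14.9%, and 0 higher, against 13.7%.

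Markers of other cells were checked on the same arrays. Of 7 blood cell markers on the array, 1 lay above the floor in the control line and on the Twist DMSO array (CD14, at most 4.81) and 0 on the Twist Cmp302 arrays. The leukocyte gene PTPRC was at the floor throughout. Of 7 endothelial markers, PECAM1 alone was above the floor (3.80 to 4.05 in the control line, 7.2 to 7.64 in the Twist line), with VWF, CDH5 and KDR at the floor. Fibroblast and fat cell markers moved with the line, with 3 of 8 above the floor on each control-line array and 6 of 8 on each Twist-line array, and summed signals of 10.10 to 11.63 and 14.16 to 14.84. At 10 µM in the Twist line 3 of 6 measured markers of this list were lower than under DMSO (LUM, PDGFRA and DCN), against 8.46% of all genes. None was higher, and the median change was -0.96. The changes of LUM and PDGFRA were -1.97 and -1.94. All 6 epithelial markers were above the floor in the control line and 3 in the Twist line, where CDH1, EPCAM and KRT5 were at the floor. Under DMSO all 6 were lower in the Twist line past 2-fold, against 13.5% of all genes, with a median difference of -9.21. With Cmp302 at 10 µM in the Twist line KRT18 was past 2-fold higher than under DMSO, 1 of 3 measured against 8.04% of all genes. Of 6 mesenchymal markers, ZEB2, ZEB1, VIM and CDH2 were higher in the Twist line under DMSO, against 11.9% of all genes, and 0 lower, against 13.5%. FN1 and TWIST1 stayed inside 2-fold under DMSO. On the 5 µM arrays TWIST1 was past 2-fold higher too, making 5 of 6, against 12.1% of all genes, and on the 10 µM arrays 4 were higher, without TWIST1, against 14.8%. The limma fit between lines called 5 of 6 higher, against 13.7%, among them TWIST1 (1.06 ± 0.21, adjusted p = 0.017). Whether these shifts bear on the cytokine signals was not tested.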

How the data were processed

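Total RNA from 6 samples, 1 per group, was hybridised to Affymetrix U133 Plus arrays, a number that limits precision. The authors deposited log2 signals (scale judged from their range). Per the submitters' processing notes GCOS 1.2 was used. Background correction, summarisation and normalization are not given in the sources used here. Arrays were shifted by -0.03 to 0.01 to a median ratio of 0 over probe sets brighter than the median, after 62 controls were left out. A gene was read by its brightest probe set with 1 symbol (41091 probe sets; 1801 had several symbols and 11721 none, not used). Only genes exceeding the floor on 2 or more arrays were tested with limma 3.58.1 in R 4.3.3 (lmFit, eBayes with trend), at an adjusted p of 0.05. The fits were tested on simulated data. Symbols were updated through RefSeq gene IDs. The members and lists were chosen with earlier results of these data known. Genes of the set past 2-fold or called were named, most with their signals, and of most other lists the 2 widest at 10 µM. Alternatives were other scalings, floors, filters, probe sets, baselines and arrays left out.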

Additional observations from a re-analysis of the deposited data

Results flagged for a closer look

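The trend of 3 genes differed between lines with Cmp302 by the interaction term of the limma fit. CCL20 rose by 1.33 per level in the Twist line against a control-line estimate of -0.32, a difference of 1.64 log2 units per level. CSF1 had estimates of 0.75 and 0.00, a difference of 0.75. Its control-line signals were all at the floor, which hides any change there, and it passed the filter through the Twist line alone. IL32 had 0.70 and -0.18, a difference of 0.88. In the Twist line each had its lowest signal under DMSO and its highest at 10 µM. The fit called 0 of the 3 with no filter on low signals. It called 0 genes of the set, and 0 of all genes, without any 1 array other than Twist 5 µM. Without that array it called 12 genes of the set up and 2 down, as it did 1022 and 1180 of all genes.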

How the results depend on the processing

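Of 267 recomputed changes of named genes, 246 kept their direction and stayed past 2-fold, 14 moved inside it and 7 reversed. The reversals were differences between lines taken with Cmp302 in place of DMSO, with the cause not tested: ICAM1 (0.63 at 5 µM, 1.28 at 10 µM), CXCL3 (1.61, 2.12), CCL20 (1.11, 2.21) and LIF (0.50 at 10 µM). Of 172 recomputed counts, 128 stayed within 1.5 times. Genes higher in the Twist line under DMSO (3) numbered 5 and 1 with floors at the 35th and 65th percentile, and 8 and 10 on the 5 µM and 10 µM pairs. Without probe sets suffixed _x_at or _s_at, 5 were higher at 5 µM and 6 at 10 µM in the Twist line. This setting drops every probe set of ICAM1, CCL2, IL32 and CXCL8, and the only one of CXCL2 above the floor, so these genes could not be counted. The share of all genes was not computed for it. In the control line it gave 0 higher at 10 µM, as did the median over probe sets. Lower at 10 µM in the Twist line was 1 with the higher floor, and 11 at each level against the control-line DMSO array.

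In the limma fits, the higher floor gave 2 higher and 7 lower between lines, 0 down in the Twist-line trend and 1 up in the difference of trends. Of all 10164 genes then tested, these were 1124, 1266, 1279 and 21. Leaving out the suffixed probe sets gave 3 higher between lines and 8 up in the Twist-line trend, against 1464 and 1064 of all 9839 genes then tested. With no filter the counts were 0 higher between lines, 0 up and 0 down in the Twist-line trend and 0 in the difference. Of all 19775 genes, 833 were then called higher between lines. The Twist-line trend called 8 up and 8 down of them, and the difference 6 up and 4 down. The median over probe sets gave 1 down in the Twist-line trend and 1 up in the difference, against 956 and 72 of all 11834 genes then tested. The lower floor gave 1 down in the difference, against 221 of all 14877 genes then tested. Levels coded 0, 1 and 1 gave 9 up and 2 down there. Of all 12478 genes, 1545 were then called up and 1733 down, against 91 and 99 in the main fit, so calls grew over the whole array. Leaving out 1 treatment pair gave 6 to 10 (without the DMSO pair) higher and 12 to 16 lower between lines, and leaving out 1 array gave 0 to 12 up and 0 to 2 down in the Twist-line trend and in the difference of trends. These fits keep 1 residual degree of freedom. Of all 12478 genes, leaving out 1 pair gave 1163 to 3565 higher and 1344 to 3685 lower between lines. No paired analysis was possible because each group has 1 array and the labels carry no replicate numbers, beyond matching the lines by treatment as in the fit between lines. Signals near the floor limit IL24, CXCL6, CXCL12, CXCL14 and CCL28, and in the Twist line also IL1A and IL1B.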

Other observations

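Of 11 measured enzymes and adaptors that mature or shed these ligands, 5 were lower in the Twist line under DMSO, against 13.5% of all genes, and 0 higher, against 11.9%. PYCARD, the inflammasome adaptor, had 7.67, 7.28 and 7.30 without Twist and 4.44, 4.24 and 4.11 with it, and the limma fit over treatments called 4 lower (PYCARD, CAPN1, CASP1 and FURIN), against 14.9%, and 0 higher, against 13.7%. With Cmp302 at 10 µM 0 were past 2-fold in the Twist line, the widest being CASP4 (0.95) and GSDME (0.78). Of 11 JAK, STAT and SOCS genes, 4 were lower in the Twist line under DMSO (CISH, STAT6, SOCS2 and STAT3), against 13.5% of all genes. JAK2 and TYK2 were higher, 2 of 11 (18.2%) against 11.9%. The limma fit called 3 lower, against 14.9%, and 3 higher, against 13.7%. Against DMSO, JAK1 (1.12) and STAT3 (1.01) were higher at 10 µM in the Twist line, 2 of 11 against 8.04% of all genes. On the Cmp302 arrays STAT3 lay within 0.12 log2 units of the control line, and on the DMSO array it differed by -1.27. Of 9 other adhesion molecules measured in the Twist line, 1 was higher with Cmp302 at each level, against 4.26% and 8.04%. It was JAM3, encoding a junctional molecule, with changes of 1.32 and 1.42, and the next widest at 10 µM was ALCAM (0.67).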
